A study of Mus musculus with 3 samples.

Results

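The genes described here make up the MHC class I antigen presentation machinery of mouse embryonic fibroblasts (MEF). The set held 10 genes picked by name: the heavy chains H2-K1 and H2-D1, their partner B2m, the peptide transporter subunits Tap1 and Tap2, the loading factor Tapbp, the immunoproteasome subunits Psmb8, Psmb9 and Psmb10, and the regulator Nlrc5. They were read by 12 probes on 31 spots, of 35696 gene names, 55681 probes and 59305 gene spots per array.

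The study exposed MEF to n-butylidenephthalide (BP), a phthalide found in the root of Angelica sinensis, and asked how the compound changes gene expression. Total RNA was labelled with Cy3 and hybridized to 3 Agilent 1-colour mouse arrays, 1 each for MEF without BP (control), MEF with 10 µg/ml BP (BP10) and MEF with 40 µg/ml BP (BP40). All were primary MEF of C57BL/6 embryos from which the head, legs and internal organs had been removed, and all grew in the same DMEM with serum. The labels record no treatment for the control, while the study's text gives the array control as treated with DMSO, the solvent of BP. The time in BP before RNA was taken for the arrays is not given in the sources used here.

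No condition had a second array, so there was no p-value and no spread between cultures, and each value below describes these 3 arrays. Signals are normalized log2 signals: the log2 intensity of a probe minus the 75th percentile of log2 intensity over the gene spots of the same array, so that 0 marks the spot at that percentile. A log2 ratio is the difference of such signals between arrays. A 2-fold difference (a log2 ratio of 1 or more in size) was called where at least 1 of the arrays compared read the probe above background. The error given after ± is the SD of the ratio expected from repeat spots of a probe within an array, which covers the array's own noise and not the variation between cultures. Different probes of a gene disagree more: over 4731 genes with 2 probes, the median SD of their ratios was 0.29 for BP10 against control, 0.22 for BP40 against control and 0.21 for BP40 against BP10. That 75th percentile lay at an intensity of 1765 for control, 1431 for BP10 and 1237 for BP40, and 81.7%, 68.3% and 69.1% of spots were well above background. The control array was scanned separately from the 2 BP arrays on the same slide, so that for ratios to the control scan and treatment cannot be told apart, while BP10 and BP40 shared a scan.

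Class I molecules show short peptides from inside the cell to CD8 T cells. Proteasomes cut cytosolic proteins, the TAP transporter moves the peptides into the endoplasmic reticulum (ER), and tapasin (Tapbp) holds the empty heavy chain with B2m at the transporter until a peptide fits. Fibroblasts carry the pathway at a basal level, and interferons raise its genes through STAT and IRF factors and through Nlrc5, which joins the RFX, CREB and NF-Y factors on class I promoters.

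The sequences read by 5 of the probes are shown because these probes lie on genes with the widest differences or the second probe of a gene, and because each holds a forward reading frame without a stop codon. They are written 5′ to 3′ in the sense of the transcript, with positions in the mouse build mm9 as the scanner files give them. The Psmb9 probe lies at chr17:34319174-34319233, the Tap1 probe at chr17:34330854-34330913 and the Psmb8 probe at chr17:34337771-34337830, so that these 3 genes are neighbours. The second H2-K1 probe lies at chr17:34133984-34134043. The second Nlrc5 probe spans chr8:97030478-97030624, longer than the probe itself.
Tap1: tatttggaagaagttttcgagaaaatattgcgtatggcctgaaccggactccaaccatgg
Psmb8: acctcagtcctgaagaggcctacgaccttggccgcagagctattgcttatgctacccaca
Psmb9: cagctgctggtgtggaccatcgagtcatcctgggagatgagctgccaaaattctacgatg
H2-K1, second probe: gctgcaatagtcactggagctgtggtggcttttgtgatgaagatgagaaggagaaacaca
Nlrc5, second probe: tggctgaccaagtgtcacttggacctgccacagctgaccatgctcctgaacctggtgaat

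Promoters of 8 members were found in the RefSeq table (GRCm38.p6), and Tap2 and Nlrc5 were not matched. The 4 shown belong to the members whose regulatory letters are most alike, and to the start shared by Tap1 and Psmb9, which are read away from each other. Each run holds the 250 bases before the gene's start and the first 20 bases after it, on the gene's strand. The stretches are chr17:34000328-34000597 on the minus strand for H2-K1 (the first start listed for the gene), chr17:35262844-35263113 on the plus strand for H2-D1, chr2:122147437-122147706 on the plus strand for B2m and chr17:34187306-34187575 on the plus strand for Tap1. Capitals mark AANNGAAA, the core bound by interferon regulatory factors, TGACG, the core of the CRE or X2 box, and CCAAT, the NF-Y box, each on either strand.
H2-K1: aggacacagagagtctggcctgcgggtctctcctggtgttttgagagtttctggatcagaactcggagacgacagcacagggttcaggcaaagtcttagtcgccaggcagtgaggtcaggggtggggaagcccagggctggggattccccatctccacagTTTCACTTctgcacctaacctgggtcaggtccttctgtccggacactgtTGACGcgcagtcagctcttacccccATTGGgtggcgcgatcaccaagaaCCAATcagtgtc
H2-D1: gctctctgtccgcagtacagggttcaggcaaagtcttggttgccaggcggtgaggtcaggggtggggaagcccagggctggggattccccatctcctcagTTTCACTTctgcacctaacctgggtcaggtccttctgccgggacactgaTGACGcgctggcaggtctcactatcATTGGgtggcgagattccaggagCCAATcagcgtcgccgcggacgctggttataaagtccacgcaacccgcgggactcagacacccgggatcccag
B2m: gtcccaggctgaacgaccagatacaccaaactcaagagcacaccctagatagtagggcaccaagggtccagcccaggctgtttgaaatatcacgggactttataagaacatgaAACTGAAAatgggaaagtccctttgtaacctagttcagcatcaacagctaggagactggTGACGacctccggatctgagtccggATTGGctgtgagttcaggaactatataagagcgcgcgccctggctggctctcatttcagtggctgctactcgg
Tap1: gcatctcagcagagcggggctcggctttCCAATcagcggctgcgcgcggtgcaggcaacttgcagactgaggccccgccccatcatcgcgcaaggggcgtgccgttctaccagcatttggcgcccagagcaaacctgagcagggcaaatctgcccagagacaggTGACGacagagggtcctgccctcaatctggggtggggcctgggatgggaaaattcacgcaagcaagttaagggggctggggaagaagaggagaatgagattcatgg

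In the full window of 300 bases, AANNGAAA was present in the promoters of H2-K1, H2-D1 and B2m, 3 of 8 members, and in 23.9% of all 32851 promoters of the table. TGACG was present in 5 members (H2-K1, H2-D1, B2m, Tap1 and Psmb9) and in 20.8% of all promoters. CCAAT was present in 6 members and in 37.4% of all promoters, and the kappa B pattern GGGNNNNNCC in 5 members and in 50.8%. The gamma-activated site TTCNNNGAA was present in Psmb8 alone among the 8, and in 8.30% of all promoters. TGACG followed by ATTGG after exactly 20 bases stood in H2-K1, H2-D1 and B2m. That pattern, with 15 to 25 bases allowed between its parts, was written after these sequences had been read, and 143 of all promoters (0.435%) held it. The windows of Tap1 and Psmb9 overlapped by 275 bases, so their matches are largely the same letters read from opposite strands. These are matches of letters and not measured binding.

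All 12 probes were well above background on all 3 arrays. The signal was lowest at BP10 for 8 of the 10 genes (44.5% of all genes and 51.0% of those with a mean signal above 0). Every probe's difference between BP10 and the control exceeded 2 SD of the repeat spots. The share of all probes that did so was not computed. H2-D1 passed with a log2 ratio of -0.23, no lower than the median of all genes. Against the control, 9 of 10 genes were lower at BP10 (66.0% of the 35451 genes with values were), with a median log2 ratio of -0.55 beside -0.24 over all genes. At BP40, 7 of 10 were higher than the control (41.7% of all genes were), with a median of 0.15 beside -0.12 over all genes. Between the doses, 9 of 10 were higher at BP40 than at BP10 (58.6% of all genes were), with a median of 0.51 beside 0.07 over all genes. The 7 members with a mean signal above 0 lay closer to genes of that range at BP40. Their medians in the 3 comparisons were -0.51, 0.11 and 0.44, beside -0.11, 0.05 and 0.16 for all genes with a mean signal above 0. The 3 dimmer members had medians of -0.59, 0.62 and 1.21. The directions depend on the scaling. At the 50th percentile, 7 of 10 members were lower than the control at BP10, and H2-D1 and Tap2 lay above it (0.10 and 0.09). The directions at BP40 are relative to the other genes on the array. With the 5 bright E1A spike-in control probes set equal instead, the medians became -0.60 against the control and -0.31 against BP10. That scaling moved the median of all genes with BP40 to -0.87 and -0.75. It shifts every gene of an array alike, so the distance of the members above all genes, 0.27 and 0.45, could not change.

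**Figure D1:**
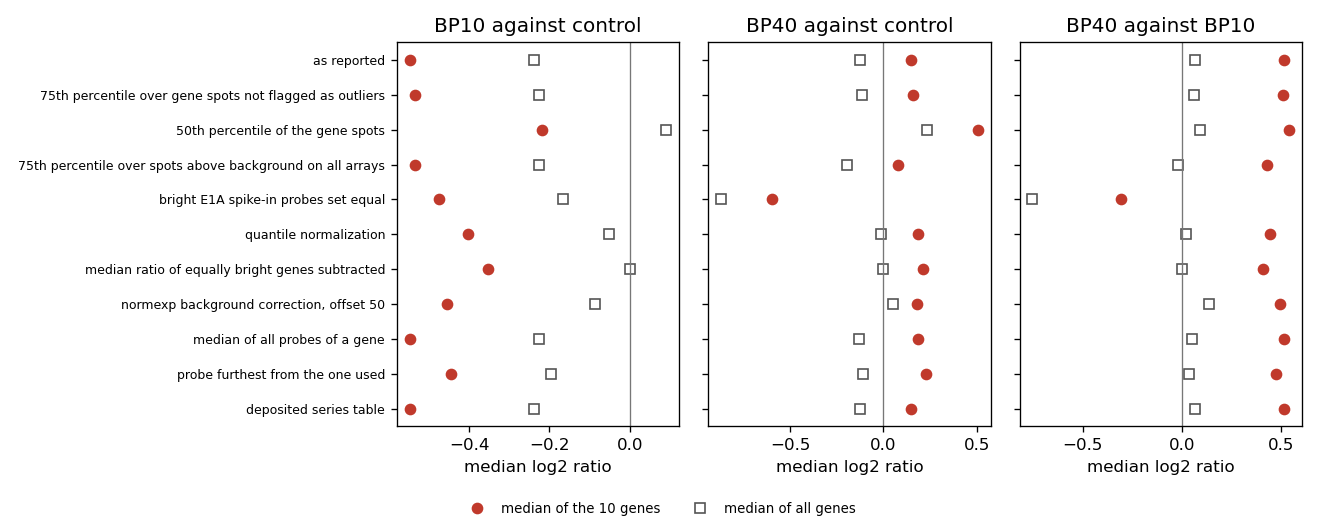
Median log2 ratio of the 10 members (red) and of all genes (open squares) in the 3 comparisons, as reported and under 10 other settings of scaling, background correction and probe choice. The members lie below all genes at BP10 and above them in both comparisons with BP40 under every setting drawn. Their distance from all genes could not change where a setting shifts a whole array alike (other percentiles, E1A probes). Nor could it change with the deposited values, which equal those used. The members' median at BP40 turns to -0.60 and -0.31 with the E1A probes set equal.

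At the 2-fold threshold the members gave few calls. Between BP10 and the control, 1 member was called, Nlrc5, which was lower; 13.2% of all genes were called in either direction, 2.63% higher and 10.6% lower. That call depended on the scaling: at the 50th percentile, after quantile normalization or with the ratio of equally bright genes subtracted, Nlrc5 was below the threshold (-0.94, -0.95 and -0.86) and Tap1 was called higher in its place (1.12, 1.02 and 1.01). Between BP40 and the control, 1 member was called, Tap1, which was higher, beside 11.7% of all genes in either direction, 2.55% higher and 9.19% lower. With the E1A probes set equal, Psmb10 was called lower in place of Tap1. Between BP40 and BP10, 3 members were called, Nlrc5, Psmb9 and Psmb8, all higher at BP40, beside 3.65% of all genes in either direction, 1.89% higher and 1.76% lower. The shares of all genes rest mostly on dim probes: among the 10877 genes with a mean signal above 0, where 7 members lay, the called shares were 2.21%, 1.76% and 1.69%.

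**Figure D2:**
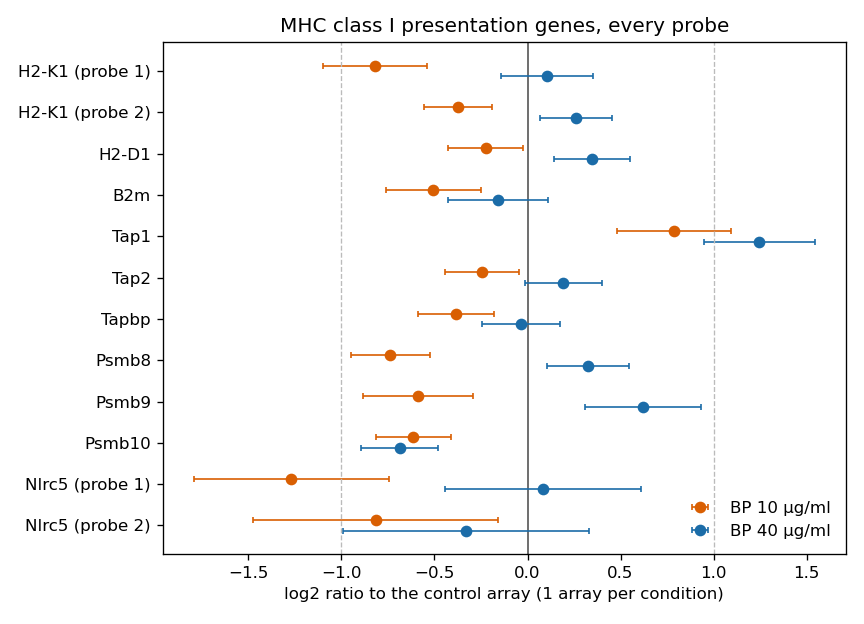
Log2 ratio of each of the 12 probes to the control array, at 10 µg/ml BP (orange) and 40 µg/ml BP (blue), with bars of 2 times the SD expected from repeat spots and dashed lines at a 2-fold difference. At BP10 all probes but that of Tap1 lay below 0; at BP40 the values ran from -0.69 for Psmb10 to 1.24 for Tap1, a spread that sits lower against the control with the E1A probes set equal (median -0.60).

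The heavy chains carry the peptide groove, and H2-K1 was read best, by a probe printed on 10 spots (chr17:34133055-34133114, mm9). Its mean signal was 3.75 in the control, 2.93 at BP10 and 3.86 at BP40. The 10 spots ran from 3.54 to 3.87 in the control, from 2.81 to 3.07 at BP10 and from 3.76 to 3.92 at BP40. The BP10 spots thus lay below every spot of the other arrays, and the control and BP40 spots overlapped. The log2 ratio was -0.82 ± 0.14 at BP10, a 1.76-fold lower signal, 0.11 ± 0.12 at BP40, and 0.92 ± 0.09 between BP40 and BP10.

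The second H2-K1 probe, the sequence printed above, read 2.19 in the control, 1.81 at BP10 and 2.45 at BP40. It had the same order with smaller differences, -0.37, 0.26 and 0.64 in the 3 comparisons. Class I genes are alike in sequence, and of 51 other probes for H2 genes the one most like this probe, for H2-T23, shared 39 of its 60 bases without gaps. For the 10-spot probe the most alike, for H2-Q1, shared 26. Cross-hybridization was not tested.

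H2-D1, the other classical heavy chain of this strain with a probe (chr17:35403886-35403945), read 3.21, 2.98 and 3.55 in control, BP10 and BP40. The log2 ratios were -0.23 ± 0.10 at BP10, no lower than the median of all genes, and 0.57 ± 0.07 between BP40 and BP10. B2m, the invariant light chain that every class I molecule needs (chr2:121978401-121978460, 2 spots), read 6.05, 5.55 and 5.89. Its log2 ratio was -0.51 ± 0.13 at BP10, and the -0.16 ± 0.13 at BP40 lay within 2 SD of the spots. The order of levels was therefore BP10, control, BP40 for the heavy chains, with control and BP40 separated by more than 2 SD of the spots for H2-D1 and the second H2-K1 probe but not for the 10-spot H2-K1 probe, and BP10 below the others for B2m.

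**Figure D3:**
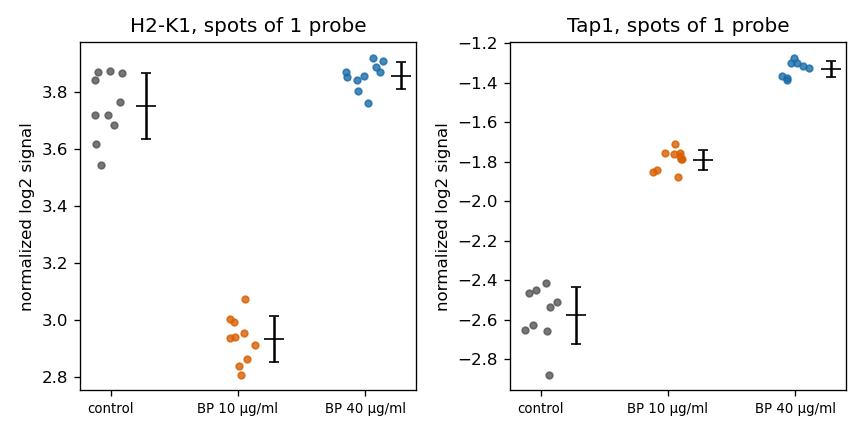
Normalized log2 signal of every spot used of the H2-K1 probe (left) and of the Tap1 probe (right), each printed 10 times per array, in the control, BP10 and BP40 arrays; the bar beside each cloud is the mean ± SD over spots of that array. For H2-K1 the BP10 spots (2.81 to 3.07) lie below both other arrays, and for Tap1 the arrays do not overlap, with the control lowest; the height of BP40 against the others depends on the scaling to the 75th percentile.

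Tap1 was the 1 member that was higher than the control at both doses. This subunit of the peptide transporter, also read on 10 spots, had a mean signal of -2.58 in the control, -1.79 at BP10 and -1.33 at BP40. Its spots ran from -2.88 to -2.42 in the control (9 spots), from -1.88 to -1.71 at BP10 (10 spots) and from -1.39 to -1.28 at BP40 (8 spots), after spots marked as outliers were left out. The spots of the 3 arrays did not overlap. The log2 ratio to the control was 0.79 ± 0.15 at BP10 and 1.24 ± 0.15 at BP40, a 2.37-fold higher signal, and 0.46 ± 0.07 between the doses. With the E1A probes set equal the BP40 value was 0.50 against the control and -0.36 against BP10.

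Tap2, the other subunit of the transporter (chr17:34353116-34353175), read 1.76 in the control, 1.52 at BP10 and 1.95 at BP40, with ratios of -0.24, 0.19 and 0.44. Tapbp, which bridges the transporter and the empty heavy chain (chr17:34065963-34066022), read 1.34, 0.95 and 1.30, with ratios of -0.39, -0.04 and 0.35. Both were lowest at BP10, and their control and BP40 signals were not separated by 2 SD of the spots.

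The immunoproteasome subunits replace constitutive subunits of the proteasome and change which peptides it cuts. Psmb8, which takes the place of Psmb5, read 0.91 in the control, 0.17 at BP10 and 1.24 at BP40. Psmb9, which takes the place of Psmb6, read -1.49, -2.08 and -0.87. Both were lower than the control at BP10 (-0.74 ± 0.11 and -0.59 ± 0.15) and higher than it at BP40 (0.33 ± 0.11 and 0.62 ± 0.16), and between the doses they differed 2.09-fold and 2.32-fold. With the E1A probes set equal, their BP40 ratios to the control turned to -0.42 and -0.12.

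Psmb10, which takes the place of Psmb7 (chr8:108459677-108459736), had another order. Its signal was 3.55 in the control, 2.94 at BP10 and 2.86 at BP40, lower than the control at both doses (-0.61 ± 0.10 and -0.69 ± 0.10), and the doses differed by -0.07 ± 0.07. It was the 1 member of 10 that was not higher at BP40 than at BP10.

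Nlrc5, the class I transactivator, was read by 2 dim probes on chromosome 8. The first (chr8:97051105-97051164) read -2.54 in the control, -3.81 at BP10 and -2.46 at BP40. The ratios were -1.27 ± 0.26 at BP10, 2.41-fold lower, 0.08 ± 0.26 at BP40 and 1.35 ± 0.20 between the doses, 2.55-fold higher at BP40. The second probe, printed above, read -2.77, -3.58 and -3.09, with ratios of -0.82, -0.33 and 0.49, so it kept the lowest signal at BP10 and passed the 2-fold threshold nowhere. With 1.5-fold in place of 2-fold, 6 members were called at BP10 instead of 1, and 28.8% of all genes instead of 13.2%.

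**Figure D4:**
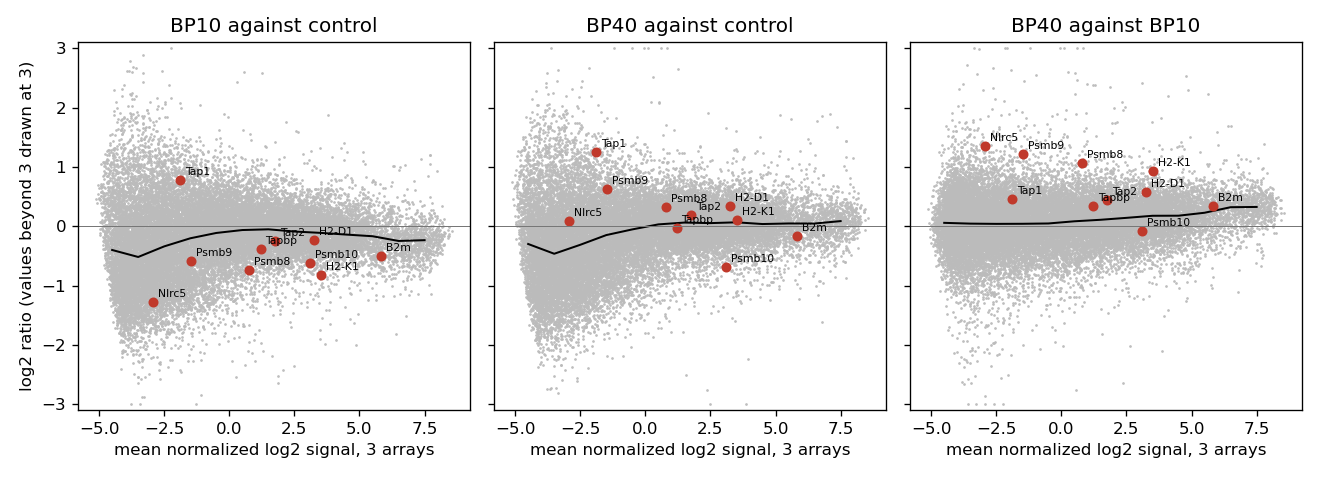
Log2 ratio (vertical, values beyond 3 drawn at 3) against mean normalized log2 signal over the 3 arrays (horizontal) for genes above background on all 3 arrays (grey), with the median per unit of signal (black line) and the 10 members (red), in the 3 comparisons. Dim genes spread more widely. Between BP40 and BP10 all members but Psmb10 lie above the line, with ratios from 0.35 for B2m and Tapbp to 1.35 for Nlrc5. The E1A probes set equal would lower every point of that panel alike. With the ratio of equally bright genes subtracted, the B2m value in that panel was 0.06, and after quantile normalization it was 0.09.

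A cell type check bears on where these transcripts came from. All 12 fibroblast markers were above background on all arrays, among them Col1a2 at 8.28, 7.96 and 8.37 and Vim at 8.07, 7.47 and 7.71, and the log2 of their summed signal was 10.6 in the control, 10.1 at BP10 and 10.2 at BP40. Lum, a small proteoglycan of connective tissue, was called lower at both doses (-3.21 and -2.22), Dcn, another, at BP10 (-1.06), and the matrix genes Col3a1 and Postn at BP40 (-1.23 and -1.04). All 15 macrophage markers were also above background, with a summed signal of 5.38, 5.13 and 5.28. The summed signal of the 10 members was 6.77, 6.26 and 6.68, lowest at BP10 as for every marker list. Ptprc, the pan-leukocyte marker, read -2.54, -2.85 and -3.03 and so did not share that order. The brightest, Itgam and Csf1r, read 4.51, 4.05 and 4.07 and 2.57, 2.26 and 2.86. Another Csf1r probe disagreed, with ratios of 0.81 at BP10, 0.60 at BP40 and -0.21 between the doses. Lyz2 was the 1 macrophage marker called, higher by 1.09 at BP10 and 1.25 at BP40. Of 12 markers of T, B and NK cells, 7 were above background on all arrays, and Cd3d, Cd3g, Ms4a1 and Klrb1c on none. Cd4 read 2.28, 1.58 and 1.65, Cd3e 1.59, 0.47 and 0.82, Cd3e and Cd79a were called lower at BP10 (-1.12 and -1.01), and the summed signal was 3.19, 2.39 and 2.55. Of 10 endothelial markers, 7 were above background on all arrays, and Cdh5, Tie1 and Erg on none. Kdr read 2.63 at BP10 and 3.03 at BP40, with a ratio of 0.03 between BP40 and the control. Its other probe disagreed, with ratios of 0.47 at BP10, -0.57 at BP40 and -1.04 between the doses. Flt1 read 2.70, 2.35 and 2.45. Cldn5 was called lower at both doses (-1.30 and -1.07) and Emcn at BP40 (-1.09 against the control and -1.93 against BP10). The sum over the endothelial markers was 3.91, 3.57 and 3.82. The part of these cells in the result was not tested, and in bulk RNA fewer cells of a type and less RNA per cell cannot be told apart.

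The neighbouring steps of the pathway gave no calls with the probe used for each gene. Of 10 ER factors that fold and load class I molecules, 0 passed 2-fold in any comparison, with medians of -0.13 at BP10 and -0.27 at BP40 against the control and 0.0055 between the doses. The 2 brightest, the chaperone Hspa5 and the translocon subunit Sec61b, had ratios between -0.41 and 0.17. Of 9 genes for constitutive catalytic proteasome subunits, proteasome activators and assembly, 0 passed, with medians of 0.04, 0.25 and 0.32. The probes of the activator Psme2 disagreed. The probe used had ratios of -0.34, 0.25 and 0.59, and another had -0.07, 0.34 and 0.41. A further Psme2 probe had 0.52, -1.98 and -2.49, beyond 2-fold in both comparisons with BP40. The order BP10, control, BP40 held for 4 of these 9. Psmb5 and Psmb6, whose places Psmb8 and Psmb9 take, had ratios of -0.13 and -0.16 at BP10 and of 0.42 and 0.29 between the doses. Another Psmb5 probe disagreed, with ratios of 0.02 at BP10 and 0.03 between the doses.

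Of 20 other class I and class I-like genes on the array, 16 were above background throughout. Over all 20 the medians were -0.18, 0.16 and 0.44, 0 were called higher in either comparison with the control, and 1 was called lower in each (H2-Q1, above background in the control only, with log2 bounds of -1.07 at BP10 and -1.02 at BP40). H2-Q8 was the 1 gene called higher between the doses (1.13), and H2-M9, at background level at BP40, was the 1 called lower. The brightest, H2-Q4 and H2-Q7, had different orders: H2-Q4 read 4.79, 4.69 and 4.57 and H2-Q7 2.37, 2.21 and 2.88. Q-region genes are close copies, so their probes may read more than 1 gene.

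Among 27 receptors, kinases and factors that control class I transcription, the medians were -0.25, 0.0070 and 0.19. Tyk2, a kinase of the type I interferon receptor, was called higher at both doses (1.38 and 1.33), and Socs3, an inhibitor of cytokine signaling, was called lower at BP10 (-1.12) and read -0.19 at BP40. The brightest, Rela and Jak1, had ratios to the control between -0.43 and 0.31. Irf1, a factor induced by interferon, is named here for its known role after its values had been seen, and its 2 probes disagreed, with ratios of -0.26 and -1.29 at BP10. Some genes, Stat2 and Irf7 among them, stand both in this list and among the antiviral genes.

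Antiviral genes induced by interferon had the largest median difference between the doses of the lists examined. Of 19, 7 were called lower at BP10, 0 were called at BP40 against the control and 9 were called higher between the doses, with medians of -0.83, 0.31 and 0.99. Those furthest apart between the doses were Ifi44 (-2.05, -3.35 and -1.24 in control, BP10 and BP40), Rtp4 (0.59, -1.02 and 0.94), Ifit1 (-2.33, -3.29 and -1.61), Oas1a (1.16, 0.02 and 1.68) and Usp18 (-0.67, -1.80 and -0.22). The brightest were Bst2, which tethers virus at the cell surface (3.36, 2.39 and 3.71), and the RNA sensor Ddx58 (2.26, 1.84 and 2.36). The order BP10, control, BP40 held for 15 of these 19 genes and for 3 of 15 interferon-induced GTPases. Over all genes it held for 5629 of 35451, and for 3115 of the 10877 with a mean signal above 0. The 3 GTPases were Igtp, Irgm2 and Gbp3, named after their values had been seen, at 0.95, 0.86 and 0.84 between the doses. The medians of the GTPases were -0.74, -0.62 and -0.0054. Gbp9 was called lower at both doses (-1.12 and -1.05) and Tgtp2 at BP10 (-1.12). The brightest, Irgm1 and Gbp2, had ratios to the control between -0.68 and -0.36, while another Irgm1 probe had 0.24 at BP10 and -0.53 at BP40. Of 11 interferon genes, Ifng, Ifne and Ifnk were above background on no array. Ifna13 was called lower at both doses (-2.25 and -1.09), and so was Ifna11 (a bound of -1.25, and -1.06). Between the doses Ifna13 was called higher at BP40 (1.16). The brightest, Ifnl3 and Ifna12, had ratios to the control between -0.89 and -0.82. Their other probes disagreed, with 0.13 at BP10 and -0.28 at BP40 for Ifnl3, and -0.34 and -0.38 for Ifna12. The medians were -0.82, -0.35 and 0.19 with dim arrays at their floor, and -0.88, -0.73 and 0.36 as measured.

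Class II genes present peptides from outside the cell and lie in the same region. Of 10 on the array, H2-Ab1, the beta chain of I-A, read -1.63, -2.59 and -0.14 and was called higher at BP40 against the control (1.49) and between the doses (2.46). Its second probe had ratios of -1.24, 1.19 and 2.42, while H2-Aa, the partner chain, was above background on no array. H2-Eb2 was called lower at BP10 (-1.21), and H2-DMb1, a peptide exchange factor, read -1.59, -1.86 and -0.94. The list's medians were -0.14, 0.05 and 0.46 with dim arrays at their floor, and -0.37, 0.0045 and 0.46 as measured.

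**Figure D5:**
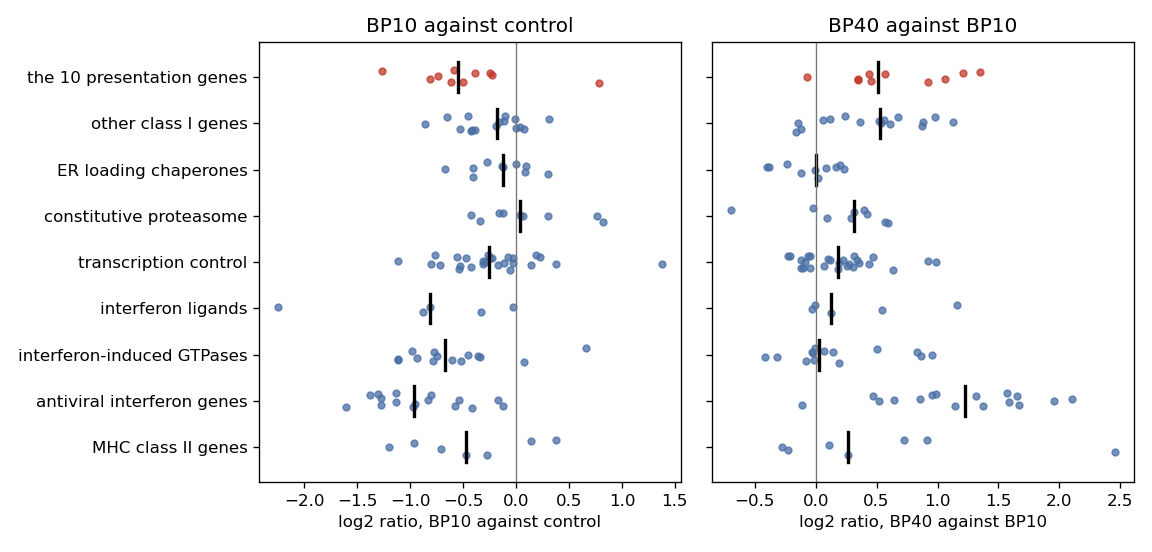
Log2 ratio of each gene above background on all 3 arrays in the 10 members (red) and 8 related lists (blue), for BP10 against control (left) and BP40 against BP10 (right), with a black bar at the list's median over the genes shown. The row marked constitutive proteasome also holds activators and assembly genes. The antiviral genes have the medians furthest from 0 in both panels, the ER chaperones lie near 0, and the members lie between them; with the E1A probes set equal the right panel would sit lower for every gene alike (all genes at -0.75).

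The genes most like the members were sought among 10870 others above background on all arrays with a mean signal above 0, by the distance between a gene's pair of ratios to the control and the members' median pair (-0.55 and 0.15). The 5 nearest were Tle3, a Groucho corepressor, Lsm5, an RNA-binding Sm-like protein, H2-K2, annotated as a class I pseudogene, Abitram, and Rpl27, a ribosomal protein, at distances of 0.01 to 0.03 on the log2 scale. Likeness over 2 ratios from 3 arrays is a weak measure, and the H2-K2 probe may read class I family members.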

How the data were processed

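RNA of each condition was hybridized to 1 array, giving 3 arrays. The number of cultures behind each RNA is not given in the sources used here. The deposited intensity values are processed signals that the authors obtained with Agilent Feature Extraction 10.5.1.1, background-subtracted and not normalized between arrays; the series value table equals them in 100% of spots within a relative tolerance of 0.0001. The authors' further work in GeneSpring was not used. Control spots and outlier spots were left out, intensities were taken to log2 and the array's 75th percentile over gene spots (outliers included) was subtracted. Spots of a probe were averaged. A gene was represented by the probe that passed background on most arrays, ties going to the brightest; every probe of a member is given. For calls a dim array was set to a floor, and a ratio against it is a bound. Medians use measured ratios unless the floor is named; with the floor the medians of all genes were -0.18, -0.08 and 0.06 in place of -0.24, -0.12 and 0.07. Symbols came from RefSeq accessions for 26425 of 55681 probes and otherwise from the files. The SD of a ratio came from the probe's own 10 spots or from 10-spot probes of like brightness.

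The members and the lists were chosen with earlier results of these data known. From the other lists the text names the genes called, at most 5 a list, and the 2 brightest, with exceptions stated beside them. The number of arrays limits the precision, and no test between conditions was possible. The calling step was checked on simulated data. Alternatives in scaling, background correction (limma 3.58.1 in R 4.3.3), filter, threshold and choice of probe were tried. Python 3.11.15 with numpy 2.4.6 and pandas 2.3.3 was used.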

Additional observations from a re-analysis of the deposited data

Results flagged for a closer look

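H2-D1, Psmb8 and Psmb9 stood out because each lay below the control at BP10 and above it at BP40, both beyond 2 SD of repeat spots. The distance between the doses was 0.57 for H2-D1, 1.06 for Psmb8 and 1.21 for Psmb9 on the log2 scale. The difference was not tested, since each condition has 1 array, and against the E1A spike-in probes none of the 3 was above the control at BP40. Scaled to the 50th percentile, H2-D1 lay above the control at BP10 (0.10). The order BP10, control, BP40, without the rule on SD, held for 5629 of all 35451 genes.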

How the results depend on the processing

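No paired analysis was possible because the arrays carry no replicate numbers. Of the members' medians and counts of calls recomputed under the alternatives, 59 stayed within 1.5 times the count or within the SD between probes of a gene, and 13 moved. Some of the 59 could not move. The deposited values equal those used, and the filters cannot change calls of members above background on all 3 arrays. An equal count did not mean the same gene: the single call at BP10 was Tap1, higher, in place of Nlrc5, lower, at the 50th percentile, after quantile normalization and with the ratio of equally bright genes subtracted, and the single call at BP40 was Psmb10, lower, in place of Tap1, higher, with the E1A probes equal. Scaling to the 50th percentile gave medians of -0.22 at BP10 and 0.51 at BP40 against the control, with 7 members lower at BP10 in place of 9. Setting the bright E1A probes equal gave -0.60 at BP40 against the control, and -0.31 with 0 calls between the doses. Normexp left 0 calls at BP10 and 1 between the doses. The 1.5-fold threshold gave 6 calls at BP10 and 3 at BP40 (28.8% and 26.7% of all genes), the 3-fold threshold gave 0 in each comparison (2.78%, 2.41% and 1.13% of all genes), and the probe furthest from the one used gave 0 at BP10, where only Nlrc5 had been called. Of the members' single ratios, 245 stayed within the SD between probes and 55 moved. Ratios from the deposited values could not move, nor could those of members with 1 probe when the choice of probe changed. The cause was not tested.

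The median of all genes depended on the scaling: it was -0.24 at BP10 and -0.12 at BP40 as reported, 0.09 and 0.23 at the 50th percentile, and -0.87 at BP40 with the E1A probes equal. Of all genes called at BP10, 19.95% were higher, against 54.5% at the 50th percentile, 50.3% after quantile normalization, 74.2% with the ratio of equally bright genes subtracted and 31.8% after normexp; at BP40 the share was 21.7%, and 62.2%, 54.4%, 67.1%, 44.0% under the same and 1.496% with the E1A probes equal. Dim probes had the widest error, which limits Nlrc5 most.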

Other observations

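Of the 10 members, 7 lie on chromosome 17 between Tapbp and H2-D1 (chr17:34065963-35403945, mm9), in the mouse MHC. Genes of that interval above background on all 3 arrays were set side by side. All 7 members there were higher at BP40 than at BP10, with a median log2 ratio of 0.57. Of 7 other class I, class II or H2 genes in the interval, 6 were higher, with a median of 0.71, and of 76 remaining genes 45 were higher, with a median of 0.09. At BP10 against the control the medians were -0.39, -0.47 and -0.13 in the same order. The interval and its grouping were drawn after the members' values had been seen, and the difference was not tested.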
